A study of Mus musculus with 12 samples.

Results

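The genes described here flank E2f1 on mouse chromosome 2. They are the 940 array probes that the scanner files place on chromosome 2 of the mm9 build with a start between 15.4 Mb proximal and 14.6 Mb distal to that of the E2f1 probe, of 55681 probes on the array. A further 13 probes in this interval were left out beforehand by gene name, E2f1 among them. They were chosen by position and name. The 940 probes carry 563 names, and 524 of them target protein-coding genes while 260 target long intergenic non-coding RNAs (lincRNAs). Neighbouring probes overlapped by position in 91 cases, so that probes are not independent of each other. Of the 940, 394 were well above background on all 12 arrays, 294 on none and 252 on 1 to 11. Tests were limited to probes whose signal stood well above background on 3 or more of the 4 arrays in at least 1 group, and 518 flanking probes (342 names) and 28450 of the whole array met this. The remainder of chromosome 2 gave 1674 tested probes of 3268.

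RNA from whole livers of 12 mice was hybridised to 12 one-colour Agilent arrays, in 3 groups of 4 separate mice. The groups are WT mice (129/Sv x C57BL/6), E2F1 knockout mice (E2f1-/-) and E2F2 knockout mice (E2f2-/-). All 3 groups, the WT group included, received the liver carcinogen diethylnitrosamine (DEN) as a single dose of 25 mg/kg when they were 14 days old. A diet with 60% of its calories from fat followed for 32 weeks, and tissue was taken at 9 months from mice fasted for 4 hours. For the 4 E2F1 knockout samples, however, 1 label (the source) names vehicle and chow, against their titles, descriptions and characteristics. A difference found in the E2F1 group alone therefore cannot be told apart from that treatment by the labels. The sources used here do not give the sex of the mice, the deleted part of each gene or the strain of origin of the DNA around each knockout allele. In a whole liver, fewer cells of a type and less RNA per cell cannot be told apart.

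E2F1 and E2F2 are transcription factors that bind as dimers to promoters of genes for DNA replication and cell division, and the retinoblastoma protein restrains them. The interval around E2f1 holds genes of many unrelated functions, among them the hepatocyte transcription factors Hnf4a and Foxa2. Genes close to a targeted allele are inherited together with it unless recombination separates them. E2f2 lies on another chromosome, so the E2F2 knockout mice serve here as treated mice in which the targeted gene is not in this interval.

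Values are log2 of the background-subtracted signal minus the array's 75th percentile of it, so 0 is the level of that percentile and a difference of 1 is a doubling. Across the arrays this percentile lay between 108 and 212 units of signal, and 44.7 to 54.4% of probes were well above background. Pearson's r over probes was 0.953 to 0.987 for pairs of arrays within a group and 0.927 to 0.978 between groups. All 10 hepatocyte markers, Alb among them, were well above background on all 12 arrays. Of 12 lists of cell type markers, none had a member called between the knockouts. The summed level of the 10 neutrophil markers was 73.8 to 226 in WT livers and 11.6 to 87.7 in E2F1 knockout livers, and 7 of 8 tested markers of dividing cells were lower in either knockout than in WT. Their part in the results against WT was not tested.

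The probe sequences that carry the main findings are shown 5′ to 3′ with their mm9 positions. Each array probe has 60 bases and reads only the signal at those bases. Capitals mark a hexamer of polyadenylation signals, AATAAA or ATTAAA. The probes of lincRNAs and of the non-coding BC029722 are shown whole, and the others by their first 30 bases. The lincRNA probe that moved is set beside a neighbour from the same locus that did not pass, and both probes of Cpne1 and of Rprd1b are given because they differ in behaviour.
lincRNA A_30_P01021316 (chr2:152011414-152011473, plus strand, moved): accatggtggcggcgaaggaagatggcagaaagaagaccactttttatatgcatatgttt
lincRNA A_30_P01030763 (chr2:152011283-152011342, plus strand, did not pass): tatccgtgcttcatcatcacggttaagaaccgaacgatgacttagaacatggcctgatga
Rem1 A_55_P2113078 (chr2:152460868-152460927, plus strand): tgtagactggcttggcctgctggcccagat
BC029722 A_66_P112399 (chr2:155643470-155643529, minus strand): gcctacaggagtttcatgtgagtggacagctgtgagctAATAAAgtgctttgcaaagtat
Cpne1 A_55_P2075996 (chr2:155897707-155897766, minus strand, moved): ccttctcagtaacctgttcacaaactgtat
Cpne1 A_51_P114772 (chr2:155904106-155904317, minus strand, did not meet the rule): gaaccgaggtagtcaagaacaacctgaacc
Scand1 A_55_P2041758 (chr2:156137586-156137645, minus strand): ctggggctccctggactgacaccctacccc
Rprd1b A_51_P229633 (chr2:157902024-157902083, plus strand, moved): tgaagtccaaaagccataagaaggaattca
Rprd1b A_52_P349298 (chr2:157869169-157869228, plus strand, did not pass): tttagaaagattgctgaacatctggcaaga

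The BC029722 probe holds AATAAA, and the Scand1 probe holds one of the hexamers in the bases not shown. On the sense strand of the probe, either hexamer was present in 13.7% of all probes on the array, in 16.1% of tested probes and in 22.4% of the 518 flanking tested ones. GC content was 43.3% for the moving lincRNA probe and 45% for the neighbour shown.

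E2f1 itself was measured by 1 probe at chr2:154385798-154385857 on the minus strand, from which all distances below are counted. Its WT arrays gave -0.10, 0.32, 0.64 and 0.10, its E2F1 knockout arrays -0.55, -0.72, -0.47 and -0.62, and its E2F2 knockout arrays -0.33, -0.02, 0.23 and 0.31. The 4 E2F1 knockout livers were the lowest of the 12, and all arrays were above background. E2F1 knockout was lower than WT by a log2 difference of -0.83 ± 0.19 (SE, adjusted p = 0.0113, limma with Benjamini-Hochberg adjustment over all tested probes). Against E2F2 knockout the difference was -0.64 ± 0.19 (adjusted p = 0.147). The sources used here do not say whether the probe lies in the deleted part.

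The first question was whether the flanking genes as a whole differed more often than genes elsewhere. In E2F1 knockout against WT, 106 of the 518 flanking probes passed an adjusted p of 0.05 (20.5%). The background was 17.9% over the remainder of chromosome 2 and 19% over all tested probes, so the flanking share was near it. By direction, 69 were higher (13.3%, against 11.4% on the remainder and 12.1% overall) and 37 were lower (7.14%, against 6.45% and 6.87%). The share was 18.5% of probes within 5 Mb of E2f1 and 22.5% of those farther away, so it was not higher near the targeted gene. In E2F2 knockout against WT, a comparison that shares the WT arrays, 105 flanking probes passed (20.3%), against 19% over the remainder of the chromosome and 19.4% overall. The median log2 difference of the flanking probes from WT was 0.13 in E2F1 knockout and 0.17 in E2F2 knockout, beside 0.12 and 0.15 over all tested probes.

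Between the knockouts themselves few probes differed. E2F1 knockout and E2F2 knockout differed at 11 flanking probes (2.12%), against 1.08% over the remainder of chromosome 2 and 1.68% over all tested probes. Of these 11, 8 lay within 5 Mb of E2f1, where 265 probes were tested (3.02%), and 3 lay beyond, of 253 tested (1.19%). Within 5 Mb, 6 of the 8 were lower in E2F1 knockout (2.26%, against 0.893% of all tested probes) and 2 were higher (0.755%, against 0.787%). The 3 farther ones were NAP060965-1, Gm826 and Sulf2, all higher in E2F1 knockout than in E2F2 knockout.

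A probe was taken to move only in the E2F1 group if 4 conditions held. Its E2F1 knockout values differed from WT and from E2F2 knockout at adjusted p under 0.05 with the same sign, its 4 E2F1 knockout arrays lay above or below all 8 others, and E2F2 knockout did not differ from WT at that threshold. The rule was met by 6 flanking probes (1.16%), by 5 probes on the remainder of chromosome 2 (0.299%) and by 157 probes of the array (0.552%). All 6 lay within 5 Mb of E2f1, which is 2.26% of the 265 probes tested there, while none of 253 flanking probes beyond 5 Mb met it (0%). Rem1, 1 of the 6, was above background only in E2F1 knockout and so entered the test only through the group where it is high. The shares of 1.16% and 2.26% include it. Among probes above background on all 12 arrays, 5 of 394 flanking probes and 1 probe on the remainder of chromosome 2 (0.0772%) met the rule. A single contrast of E2F1 knockout against the mean of the other groups was also used in place of the rule. It gave 18 of 518 flanking probes, 15 of them within 5 Mb and 3 beyond, and 21 of 1674 on the remainder of the chromosome. For this contrast and for the filter on all 12 arrays, the share over the whole array was not taken. By chromosome, the share was highest on chromosome 17 (1.42%) and chromosome 5 (1.07%). These are shares of whole chromosomes, and shares of shorter stretches elsewhere in the genome are not given. No test of the difference in share was made, since probes are not replicates.

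On the proximal side, the nearest of the 6 was Rem1, which encodes a small GTPase that inhibits voltage-gated calcium channels. Its WT arrays gave -5.19, -5.09, -3.56 and -3.84, its E2F1 knockout arrays -2.41, -2.34, -1.83 and -1.64, and its E2F2 knockout arrays -5.11, -4.73, -4.03 and -5.21. All 4 E2F1 knockout arrays lay above the others. The Rem1 probe was not well above background on any WT or E2F2 knockout array and was above it on all 4 E2F1 knockout arrays, so its rise is given as a bound. Rem1 was at least 3.81-fold higher than in WT (adjusted p = 0.00272) and at least 5.84-fold higher than in E2F2 knockout (adjusted p = 0.0024). The probe entered the test only through the group where it is high, so these p-values are not independent support. With normexp background correction the adjusted p against E2F2 knockout was 0.262. Such a bound sets the mean of the bright group against the dim group's mean of, per array, the dimmest signal that still counted as well above background, or the probe's own signal where that was higher.

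At -2.37 Mb from E2f1, a probe of a lincRNA locus on the forward strand at chr2:151992806-152025456 fell. Its values were 2.14, 1.28, 0.62 and 1.21 in WT, -0.62, -0.35, -0.15 and -0.71 in E2F1 knockout, and 0.64, 0.76, 1.20 and 0.86 in E2F2 knockout. The difference was -1.77 ± 0.27 from WT (adjusted p = 0.00199) and -1.32 ± 0.27 from E2F2 knockout (adjusted p = 0.0288). Other tested probes of this strand of the locus, 6 in number, did not pass in either comparison, and their differences from WT lay between -0.14 and 0.27. With the slide as a block, the adjusted p against E2F2 knockout was 0.0692, so that this probe no longer met the rule. Nor did it pass against E2F2 knockout without E2F1 knockout array 1, 2 or 4 or without any 1 of the 4 E2F2 knockout arrays (adjusted p from 0.0537 to 0.0918).

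The other 4 lay on the distal side. BC029722, a long non-coding RNA at 1.26 Mb, had the largest fall of the 6. Its WT arrays gave 4.17, 3.86, 4.196 and 4.22, its E2F1 knockout arrays 1.91, 1.84, 1.85 and 2.71, and its E2F2 knockout arrays 4.02, 4.30, 4.18 and 4.11. The WT and E2F2 knockout arrays lay together and the E2F1 knockout arrays lay below both. The difference was -2.03 ± 0.20 from WT (adjusted p = 0.000118) and -2.07 ± 0.20 from E2F2 knockout (adjusted p = 9.4e-05). By position its probe overlaps one of a gene on the opposite strand.

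Cpne1 encodes copine 1, a calcium-dependent phospholipid-binding protein, and lies at 1.51 Mb. For its probe A_55_P2075996 the WT arrays gave 1.87, 1.59, 1.62 and 1.45, the E2F1 knockout arrays -0.21, -0.40, 0.42 and 0.28, and the E2F2 knockout arrays 1.79, 1.66, 1.42 and 1.46. It was lower in E2F1 knockout by -1.61 ± 0.19 against WT (adjusted p = 0.000546) and by -1.56 ± 0.19 against E2F2 knockout (adjusted p = 0.000839). The highest E2F1 knockout array, at 0.42, was about 1 log2 unit below the lowest of the other 8.

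Scand1 encodes a SCAN-domain protein that lacks zinc fingers, and lies at 1.75 Mb. It rose. Its values were 6.25, 6.19, 6.50 and 6.20 in WT, 7.02, 6.97, 7.44 and 7.21 in E2F1 knockout, and 6.15, 6.32, 6.45 and 6.34 in E2F2 knockout. The difference was 0.88 ± 0.15 from WT (adjusted p = 0.00313) and 0.85 ± 0.15 from E2F2 knockout (adjusted p = 0.00977). This was the smallest change of the 6, and the WT and E2F2 knockout arrays overlapped.

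Rprd1b, the most distal of the 6 at 3.52 Mb, encodes a protein that binds the carboxy-terminal domain of RNA polymerase II. Its probe A_51_P229633 gave 3.32, 3.21, 3.60 and 3.20 in WT, 1.98, 2.24, 1.80 and 1.71 in E2F1 knockout, and 3.48, 3.54, 3.71 and 3.65 in E2F2 knockout. The fall was -1.40 ± 0.16 against WT (adjusted p = 0.000335) and -1.66 ± 0.16 against E2F2 knockout (adjusted p = 8.3e-05).

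Each slide held 1 array of every group, so each of these differences can be read within a slide. The sign within a slide is fixed by the rule, which asks for arrays that lie apart, and only the sizes are given. The difference from WT ranged over slides from 0.77 to 1.02 for Scand1, from -2.35 to -1.50 for BC029722, from -2.08 to -1.17 for Cpne1 and from -1.80 to -0.97 for Rprd1b. For the lincRNA probe it ranged from -2.75 to -0.77. Each group kept 1 position on every slide, and effects of position and of group cannot be told apart. With the slide as a block the rule was again met by 6 flanking probes (1.16%), 5 of them the same, and Spag4 took the place of the lincRNA probe. On the remainder of chromosome 2 the share with the block was 0.299%, and that over the whole array is not given.

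The 6 probes span chr2:152011414-157902083, with 200 tested probes of 121 names in that stretch, so most genes between them did not meet the rule. Between Rem1 and BC029722 no probe met it. In the 1 Mb on the proximal side of E2f1, the 4 E2F1 knockout arrays lay apart from the other 8 at 2 of 22 tested probes (9.09%) and 1 probe passed against E2F2 knockout. In the 1 Mb on the distal side the arrays lay apart at 1 of 35 (2.86%) and 1 probe passed. The probes of Cdk5rap1, Ahcy and Eif2s2 described with the genes measured more than once lie in these stretches.

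The 8 tested genes nearest to E2f1 on each side were followed whatever their values. Pxmp4, a peroxisomal membrane protein gene 0.0271 Mb away, was 0.78 ± 0.22 higher in E2F1 knockout than in WT (adjusted p = 0.0253). Chmp4b, a subunit gene of the ESCRT-III membrane-cutting complex at 0.134 Mb, was lower by -0.48 ± 0.16 (adjusted p = 0.0486), and in E2F2 knockout by -0.49 (adjusted p = 0.0451). Both calls were close to the threshold: Pxmp4 passed in 12 of 21 alternative settings and Chmp4b in 8 of 21. At these probes neither gene differed between the knockouts (adjusted p = 0.393 and 0.994). Pxmp4 was also read by the probe A_55_P1983135, which did not change alike. Relative to the first probe it was lower in E2F1 knockout, by -1.32 against WT (adjusted p = 0.0266) and by -1.26 against E2F2 knockout (adjusted p = 0.0428). For this relative value the E2F1 knockout arrays did not lie apart from the others, so the rule was not met.

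Of the other 14 nearest genes none passed against WT or against E2F2 knockout. The gene closest to E2f1, 1700003F12Rik at -0.0107 Mb, had a difference of -0.08 ± 0.16 from WT. Necab3 (0.69 ± 0.28, adjusted p = 0.105) and Bpifa5 (0.52 ± 0.25, adjusted p = 0.168) had the next largest values after Cdk5rap1, and Bpifa5 passed with the slide as a block (adjusted p = 0.0322) or without WT array 4 (0.0473). Cbfa2t2, a transcriptional corepressor gene, gave 0.13 ± 0.16, and Raly, an RNA-binding protein gene, gave 0.10 ± 0.17. Against E2F2 knockout, the largest difference among the 16 was 0.64 for Necab3 (adjusted p = 0.396). For Cdk5rap1 and Eif2s2 the rule took the brightest probe, and their other probes are described with the genes measured more than once.

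In 111 of the 342 tested names the array carried several tested probes, 287 in all, so that a gene could be read at more than 1 place. Rprd1b was read by 2 probes. The probe A_52_P349298 gave 0.03, 0.03, 0.30 and 0.06 in WT, 0.39, 0.34, 0.46 and 0.27 in E2F1 knockout, and 0.25, 0.42, 0.29 and 0.19 in E2F2 knockout. It did not pass against WT (0.26, adjusted p = 0.174) or against E2F2 knockout (0.08, adjusted p = 0.897), while the probe 0.03 Mb away fell by 1.40 against WT. The second Cpne1 probe, A_51_P114772, was -0.68 ± 0.20 lower than in WT (adjusted p = 0.0399) but not lower than in E2F2 knockout (-0.29, adjusted p = 0.688).

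Such unequal changes were then measured for all genes with several tested probes, a choice made after the values of the flanking probes were seen. Each probe's value minus the mean of its gene's other tested probes (its gap) was fitted with limma over 13422 probes of 5556 names and held to the rule used above. Gaps that moved only in the E2F1 group were found for 8 of 288 flanking probes (2.78%) and 4 of 112 names. Within 5 Mb of E2f1 there were 7 of 154 probes (4.55%) and 3 of 55 names. Beyond 5 Mb there was 1 of 134 probes (0.746%) and 1 of 57 names. The remainder of chromosome 2 had none of 846 probes of 365 names. Over the array there were 61 of 13422 probes (0.454%) and 33 of 5556 names. The 3 names within 5 Mb were Cdk5rap1, Ahcy and Rprd1b. The unequal probes of Rprd1b had been seen before this search, and its probe A_51_P229633 had already met the rule. Its count here is therefore not separate support. Probes of 1 gene share their gap, so names and not probes are the unit to read.

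Ahcy encodes the enzyme that hydrolyses S-adenosylhomocysteine, the product of methyl transfer reactions, and lies 0.5 Mb distal to E2f1. It was read by 3 probes, each with all 12 arrays above background. Against WT, the probes A_52_P176160 and A_55_P2031100 were higher in E2F1 knockout by 1.33 and 1.58 (adjusted p = 0.00846 and 0.00197) and in E2F2 knockout by 1.14 and 1.25 (adjusted p = 0.0165 and 0.00548). The probe A_55_P2000938 rose in E2F2 knockout (1.41, adjusted p = 0.0107) but not in E2F1 knockout (-0.18, adjusted p = 0.755). It was lower in E2F1 knockout than in E2F2 knockout by -1.59 (adjusted p = 0.0236).

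The gap of A_55_P2000938 to the other Ahcy probes was 3.42, 3.43, 3.69 and 3.67 in WT, 1.78, 1.85, 2.07 and 1.97 in E2F1 knockout, and 3.63, 3.87, 3.75 and 3.82 in E2F2 knockout. Within each group these values lay within 0.3 of each other, closer than the values of the probes themselves. The change of the gap was -1.64 ± 0.11 against WT (adjusted p = 1.52e-05) and -1.85 ± 0.11 against E2F2 knockout (adjusted p = 2.76e-06). The probes, in the order A_55_P2000938, A_52_P176160 and A_55_P2031100, are shown by their first 30 bases because they separate this gene into parts that changed unequally.
Ahcy A_55_P2000938 (chr2:154885047-154885106, minus strand): acttaacccatttgacctggaaagcaaata
Ahcy A_52_P176160 (chr2:154891321-154891380, minus strand): gcattgagcagacgctgcacttcaaggacg
Ahcy A_55_P2031100 (chr2:154894644-154894703, minus strand): atgagatgccaggattgatgcgcatgcggg
The probe A_55_P2000938 is the most 3′ of them on the minus strand and holds one of the polyadenylation hexamers, which reaches past the bases shown.

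Cdk5rap1 encodes a mitochondrial enzyme that modifies transfer RNAs, and its probes lie 0.225 and 0.194 Mb proximal to E2f1. The probe A_55_P2011031 gave 0.09, 0.47, -0.27 and 0.07 in WT, -3.63, -3.34, -3.52 and -2.58 in E2F1 knockout, and -1.34, -1.49, -1.17 and -0.92 in E2F2 knockout. The 3 groups did not overlap, with E2F2 knockout in between. E2F1 knockout was lower than WT by -3.36 (adjusted p = 8.35e-06) and lower than E2F2 knockout by -2.04 (adjusted p = 0.000508), with only 2 of 4 E2F1 knockout arrays above background. Because E2F2 knockout was also lower than WT (-1.32, adjusted p = 0.004), the probe did not meet the rule for moving only in the E2F1 group.
Cdk5rap1 A_55_P2011031 (chr2:154191699-154191758, minus strand): ctcaaagtcctgaagacaaagcggccacgc
Cdk5rap1 A_55_P2005005 (chr2:154161137-154161196, minus strand): cctttgcaccaaatggaagagtacatttct
The brighter probe A_55_P2005005 was not lower in E2F1 knockout than in E2F2 knockout (0.59, adjusted p = 0.654), and its difference from WT was -0.77 (adjusted p = 0.208), or -1.25 without WT array 3 (adjusted p = 0.00399). In E2F2 knockout it was lower than WT by -1.36 (adjusted p = 0.0326), like the other probe. The gap between them was 2.59 ± 0.41 wider in E2F1 knockout than in WT (adjusted p = 0.00772) and 2.63 ± 0.41 wider than in E2F2 knockout (adjusted p = 0.00544).

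For Rprd1b the gap changed by 1.66 ± 0.14 against WT (adjusted p = 6.57e-05) and by 1.74 ± 0.14 against E2F2 knockout (adjusted p = 2.33e-05). The Cpne1 gap changed by -0.93 against WT (adjusted p = 0.124) and by -1.27 against E2F2 knockout (adjusted p = 0.0486), and so did not meet the rule. The fourth name was a lincRNA locus on the reverse strand at chr2:145492995-145523670, -8.89 Mb from E2f1, where 1 of 3 probes was higher relative to the others in E2F1 knockout. That probe was above background on 3 E2F1 knockout arrays and on none of the other 8, so it entered the test only through the group where it is high, and no size is given. Eif2s2, the beta subunit of the initiation factor eIF2 at 0.311 Mb, had the probe A_51_P470724 higher in E2F1 knockout by 1.49 (adjusted p = 0.000488) and in E2F2 knockout by 0.87 (adjusted p = 0.00659), while its brighter probe gave -0.05 and 0.10. Between the knockouts A_51_P470724 differed by 0.62 (adjusted p = 0.131, or 0.0446 with the slide as a block).

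The distal stretch from 1 to 2 Mb held the most probes set apart. There the 4 E2F1 knockout arrays lay above or below the other 8 at 8 of 42 tested probes (19%), and 3 met the full rule (7.14%). Over all flanking probes the arrays were apart at 24 (4.63%), within 5 Mb at 18 (6.79%), farther away at 6 (2.37%), on the remainder of chromosome 2 at 1.79% of probes and on the whole array at 2.72%. In that stretch 12 probes passed in E2F1 knockout against WT (28.6%), and 2 passed in E2F2 knockout against WT (4.76%).

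Besides BC029722, Cpne1 and Scand1, arrays were apart there for Uqcc1, 6430550D23Rik, Spag4, Rbm12 and Norad. Spag4, a SUN-domain protein gene of the nuclear envelope, was below background on all WT arrays and was at least 3.89-fold higher in E2F1 knockout (adjusted p = 0.00342), with an adjusted p of 0.0738 against E2F2 knockout. That p was 0.0301 with the slide as a block. Uqcc1, an assembly factor of mitochondrial complex III, was 0.88 higher than in WT (adjusted p = 0.00648). Rbm12, an RNA-binding protein gene next to Cpne1, was -0.49 lower (adjusted p = 0.0221), and its values were 0.61, 0.82, 0.74 and 0.55 in E2F1 knockout against 0.94 to 1.30 in the other 8 arrays. Norad, a non-coding RNA that binds Pumilio proteins, was higher by 0.60 (adjusted p = 0.0155) at 1 of its 4 probes, and the other 3 gave 0.39 to 0.52 without passing. None of these 5 differed between the knockouts at the threshold (adjusted p from 0.0723 to 0.348).

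The remaining passes from 1 to 2 Mb were the second Cpne1 probe, Trpc4ap, Nfs1 and Cnbd2. Trpc4ap, a ubiquitin ligase adaptor gene, and Nfs1, the cysteine desulfurase of iron-sulfur cluster assembly, were higher in both knockouts. Their differences from WT were 0.55 and 0.61 in E2F1 knockout and 0.45 and 0.66 in E2F2 knockout. Nfs1 was read by another probe too, and its probes changed unequally. In E2F1 knockout the gap of A_51_P315646 to the other probe changed by 0.92 against WT (adjusted p = 0.00571) and by 0.475 against E2F2 knockout (adjusted p = 0.148). Cnbd2 was above background on 3 E2F1 knockout arrays and on no WT or E2F2 knockout array, so it entered the test only through the group where it is high. It is counted among the passes against WT (adjusted p = 0.0398), but no size is given and nothing is read from it.

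Elsewhere within 5 Mb the E2F1 knockout arrays were apart for Id1, Ccm2l, Commd7 and Tgm2, besides Cdk5rap1 and Eif2s2. Id1, an inhibitor of basic helix-loop-helix factors, was lower than WT by -1.69 (adjusted p = 0.0297). Commd7 was lower by -0.50 (adjusted p = 0.042), and 1 of the 3 Ccm2l probes was higher and set apart, by 0.95 (adjusted p = 0.00761). Tgm2, transglutaminase 2, was lower at both probes, by -1.92 and -1.78 (adjusted p = 0.00284 and 0.00439), and in E2F2 knockout by -1.19 and -1.24. None of these passed between the knockouts.

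Beyond 5 Mb, Gm826 stood apart at both of its probes, 5.75 Mb distal. Its probe A_55_P2022231 gave -2.50, -1.36, 0.10 and -0.93 in WT, 1.70, 2.56, 2.79 and 2.32 in E2F1 knockout, and 0.14, 0.89, 0.81 and 0.76 in E2F2 knockout. The E2F1 knockout arrays were highest and the E2F2 knockout arrays came next. The difference was 3.51 from WT (adjusted p = 0.000719) and 1.69 from E2F2 knockout (adjusted p = 0.0938, or 0.0197 with the slide as a block). The second probe was not above background in WT and was at least 5.79-fold higher in E2F1 knockout (adjusted p = 0.000135), and it was 1.56 higher than in E2F2 knockout (adjusted p = 0.018). Since E2F2 knockout was also above WT at both probes (adjusted p = 0.0145 and 0.00646), Gm826 did not meet the rule. The other genes set apart beyond 5 Mb were Ift52, Ctsa, Ocstamp and the lincRNA at -8.89 Mb.

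At larger distances the flanking genes that differed most from WT did so in both knockouts, which are compared with the same 4 WT arrays. The largest was Rbbp9 at -10.02 Mb, a serine hydrolase gene named for binding the retinoblastoma protein. Its probe A_55_P2006615 gave -5.32, -5.36, -5.18 and -4.99 in WT, 0.94, 1.01, 1.26 and 0.86 in E2F1 knockout, and 1.11, 0.79, 0.88 and 0.51 in E2F2 knockout. No WT array was above background and all 8 knockout arrays were, and the increase was at least 37.5-fold in E2F1 knockout (adjusted p = 1.15e-09) and at least 32.8-fold in E2F2 knockout (adjusted p = 8.44e-10). The other Rbbp9 probe, A_55_P2178592, was above background on all arrays and gave -0.49 in E2F1 knockout (adjusted p = 0.151) and -0.88 in E2F2 knockout (adjusted p = 0.0187).

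Dtd1, a D-aminoacyl-tRNA deacylase gene at -9.79 Mb, was 1.60 ± 0.17 higher in E2F1 knockout (adjusted p = 0.000256) and 1.45 higher in E2F2 knockout (adjusted p = 0.000334). Ptgis, the prostacyclin synthase gene at 12.6 Mb, was 3.22 ± 0.49 and 2.90 higher at 1 probe, and its second probe gave 0.36 and 0.37 without passing.

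Cst8, a cystatin gene at -5.75 Mb, went the other way: it was above background on the 4 WT arrays and on no knockout array, and WT was at least 4.86-fold higher than E2F1 knockout (adjusted p = 0.00327) and at least 5.59-fold higher than E2F2 knockout (adjusted p = 0.00051). Sdc4, which encodes the heparan sulfate proteoglycan syndecan-4, fell from 5.87, 5.86, 5.32 and 5.56 in WT to 3.41, 3.33, 3.74 and 3.58 in E2F1 knockout and 3.35, 3.48, 3.09 and 3.15 in E2F2 knockout. Its difference from WT was -2.14 ± 0.17 (adjusted p = 1.81e-05) and -2.39 ± 0.17 (adjusted p = 6.56e-06). The distance bin of Sdc4, from 5 to 10 Mb distal, had the highest shares called against WT, with 38.3% in E2F1 knockout and 31.7% in E2F2 knockout, and 1 probe of 60 called between the knockouts.

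By function, the flanking genes were grouped in 6 lists, with the brightest tested probe standing for each gene. The lists were written from general knowledge but with earlier results of these data known. Their shares are therefore not independent of these values. Over all 20584 tested names, 19.7% passed in E2F1 knockout against WT and 1.6% in E2F1 knockout against E2F2 knockout. The list of 26 tested immediate neighbours of E2f1 had 2 higher and 4 lower against WT (23.1%). Among those, Nol4l at -1.15 Mb was lower by -1.72 ± 0.26 (adjusted p = 0.00169). Plagl2, a zinc-finger transcription factor gene at -1.33 Mb, was lower by -0.68 ± 0.19 (adjusted p = 0.0254). In E2F1 knockout, 2 of the 4 arrays had the Nol4l probe above background. Itch, a ubiquitin ligase gene, was 0.55 ± 0.16 higher (adjusted p = 0.0293). The list's median difference from WT was -0.06, and 1 gene, Ahcy, passed against E2F2 knockout. In E2F2 knockout Nol4l and Plagl2 were also lower than in WT, by -1.11 and -0.62 (adjusted p = 0.0114 and 0.0356). Itch did not pass there (0.37, adjusted p = 0.115). In E2F2 knockout against WT the list had 1 higher and 4 lower, beside 2504 higher and 1599 lower over all tested names.

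The liver metabolism list held 32 tested genes, of which 12 were higher and 2 lower than in WT (43.8%, median 0.24). Of the 10 hepatocyte markers, 5 were also higher than in WT in E2F1 knockout and none was lower (median 0.88), and their summed level was 5900 to 9000 in WT livers and 8270 to 12000 in E2F1 knockout livers. The part of these markers in the list's count was not tested. Hnf4a, a master transcription factor of hepatocytes, rose by 0.67 ± 0.15 in E2F1 knockout (adjusted p = 0.00909, or 0.0518 with median centring) and by 0.76 in E2F2 knockout (adjusted p = 0.00522). Foxa2, another hepatocyte transcription factor, did not pass (0.27 ± 0.26, adjusted p = 0.527). Sgk2, a kinase gene of the serum and glucocorticoid family, was 1.26 ± 0.40 higher (adjusted p = 0.0442). Pygb, the brain-type glycogen phosphorylase, was lower by -2.61 ± 0.59 (adjusted p = 0.0106), and Dbndd2 was lower by -1.37 ± 0.26 (adjusted p = 0.00511). The Pygb probe was above background on 4 WT arrays, 2 E2F1 knockout arrays and 1 E2F2 knockout array. Both genes were lower in E2F2 knockout too, and the only gene of the list called between the knockouts was Ahcy. In E2F2 knockout against WT the list had 10 higher and 5 lower.

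Of 24 tested genes of the immune, endothelial and matrix list, 3 were higher and 7 lower than in WT (41.7%, median -0.31). Slpi, a peptidase inhibitor of secretions and leukocytes, was lower by -3.38 ± 1.04 (adjusted p = 0.0403), with WT arrays at 7.62, 6.31, 1.51 and 6.16, so that 1 WT liver lay within the range of the knockouts. Ocstamp, a gene of osteoclast cell fusion, was lower by -2.51 ± 0.56 (adjusted p = 0.0103) and had the same WT liver lowest at -0.87. In E2F2 knockout against WT the list had 2 higher and 8 lower. Slpi and Ocstamp were lower there too, by -3.75 and -1.84 (adjusted p = 0.0261 and 0.0378). In E2F1 knockout against WT, 5 of 10 neutrophil, 2 of 10 endothelial and 3 of 10 stellate cell markers were lower, with none higher. Of 9 macrophage and Kupffer cell markers, 2 were lower and 1 was higher. Of 8 tested markers of T and NK cells none was called, and of 6 of B and plasma cells 1 was higher. The part of these marker levels in the differences of this list was not tested. The list had 1 gene called between the knockouts, Sulf2, which encodes an endosulfatase and was 0.83 higher in E2F1 knockout (adjusted p = 0.0497, or 0.0806 with the slide as a block).

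The 23 tested genes of cell division and chromatin had 4 lower and none higher than in WT (17.4%), and none was called between the knockouts. Ube2c, the ubiquitin-conjugating enzyme of the anaphase-promoting complex, was lower by -1.71 ± 0.41 (adjusted p = 0.0136), Ninl by -1.23 ± 0.36 (adjusted p = 0.0338) and Stk4, a Hippo pathway kinase gene, by -0.84 ± 0.20 (adjusted p = 0.0142). The Ninl probe was above background on 3 WT arrays, 1 E2F1 knockout array and 1 E2F2 knockout array, and with normexp background correction its difference was -0.10 (adjusted p = 0.615). In E2F2 knockout against WT this list had 1 higher and 4 lower. Ube2c and Stk4 were lower there too, by -1.75 and -0.73 (adjusted p = 0.0123 and 0.0261), and Ninl gave -0.97 (adjusted p = 0.0794). In E2F1 knockout against WT, the RNA processing and translation list had 2 higher and 2 lower of 20 (20%), and Rprd1b was its only gene called between the knockouts. Trp53rkb was 0.55 ± 0.16 higher (adjusted p = 0.0323).

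Among 32 tested genes of the secretory pathway, lysosome and ubiquitin list, 4 were higher and 3 lower than in WT (21.9%), and none was called between the knockouts. Pigt, a subunit of the enzyme that attaches glycosylphosphatidylinositol anchors, was 1.21 ± 0.18 higher (adjusted p = 0.00178) at 1 probe, while its second probe gave -0.51 (adjusted p = 0.117). Dpm1, the dolichol-phosphate mannose synthase gene, was 1.01 ± 0.18 higher (adjusted p = 0.00348) and Atp9a, a lipid flippase gene, was lower by -0.71 ± 0.22 (adjusted p = 0.0434). In E2F2 knockout Pigt and Dpm1 were 0.96 and 0.76 higher (adjusted p = 0.00487 and 0.0116).

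Promoters were searched for 4 exact forms of the E2F binding site, TTTCCCGC, TTTCGCGC, TTTGCCGC and TTTGGCGC, on both strands, from 250 bases before to 50 bases after each gene's start in RefSeq (GRCm38.p6). No pair of them can match at the same place on a strand. Any of them was present in 2.6% of 27025 promoters and in 10 of 327 flanking genes with a promoter (3.06%). Among tested genes it was present in 4.14% of 11466 promoters and in 7 of 215 flanking ones (3.26%). Of 62 flanking genes called against WT, 2 had one (3.23%). Of the 5 named genes that moved only in the E2F1 group, Rprd1b had one, and Rem1, BC029722, Cpne1 and Scand1 had none of these letters in this window.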

How the data were processed

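Livers of 12 mice were measured on 12 arrays. The submitters' processing notes name Agilent Feature Extraction 10.7.3.1. The values used are its processed signals, which the authors deposited as linear intensity after background subtraction. A matrix of log2 values, also deposited, was used as an alternative; the sources used here do not say how it was scaled. Groups came from the titles and characteristics, and positions and probe sequences from the scanner files (mm9).

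Spots marked as controls or outliers were dropped, spots of a probe were averaged, and the log2 signal minus the array's 75th percentile was fitted with limma 3.58.1 in R 4.3.3, in 1 fit of the 12 arrays without covariates (9 residual degrees of freedom). Benjamini-Hochberg adjusted p under 0.05 over all 28450 tested probes was called. The rule and the fit were run on simulated data with independent noise, no slide effect and changes in the E2F1 group only. The real arrays share slide deviations, so that run does not show how often the rule errs here. The depth of an array is not a count, and the number of arrays limits the precision. Names came through RefSeq accessions for 508 flanking probes, a current symbol for 59 and a synonym for 5, and 368 kept the file's name.

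The replicate number is the slide. Of 12 pairs of arrays with the same number, 10 deviated together from their groups (r above 0.1; r from 0.04 to 0.40 over probes), and 11 of 12 arrays correlated best with their own number. The unblocked fit is the main one, and blocked values are given where they change the call of a comparison described.

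Genes were named by rule: the 8 tested genes nearest to E2f1 on each side, the probes moving only in the E2F1 group, up to 4 called members of each functional list, Hnf4a, Foxa2 and E2f1. Others (Cdk5rap1, Ahcy, Spag4, Gm826, Rbbp9's and other second probes, Cst8, and those set apart) were chosen after their values were seen. Some results are not reported here. The interval, the lists and the rules were chosen with earlier results of these data known. Alternatives were quantile normalization, median centring, normexp with an offset of 50, series matrix values, other filters on dim probes, outlier spots kept, the brightest probe per gene, the replicate block, each array left out, and other definitions of the rule.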

Additional observations from a re-analysis of the deposited data

Results flagged for a closer look

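For 45 named probes in 3 groups of 4 livers (135 sets of values), the highest or lowest liver was compared with the other 3 of its group by Dixon's test. Chance alone marks about 1 in 20 such sets, and 7 of 135 were marked, so no pattern is read from them.

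BC029722 was marked in WT and in E2F1 knockout. WT liver 2 gave 3.86 against 4.17 to 4.22 in the other WT livers, and E2F1 knockout liver 4 gave 2.71 against 1.84 to 1.91. Both livers still lay on their own group's side, since the lowest value in the other 8 arrays was 3.86. Ptgis was marked in E2F1 knockout, where liver 1 gave 1.77 against 1.03 to 1.13. Foxa2 was marked there too, with liver 2 at 3.54 against 4.12 to 4.18, and so was 1700003F12Rik, with liver 2 at -0.48 against -0.44 to -0.43. Dpm1 had WT liver 3 at 2.66 against 2.10 to 2.19, and Trp53rkb had E2F2 knockout liver 3 at -1.01 against -0.72 to -0.66.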

How the results depend on the processing

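BC029722, Cpne1 and Rprd1b met the rule for moving only in the E2F1 group under all 25 alternatives tried. Rem1 was lost with normexp and with a filter on all 12 arrays, Scand1 with median centring and with no filter on dim probes, and the lincRNA probe under 11 of 25. The count of 6 was 4 with normexp and with no filter. The single contrast against the mean of the other groups gave 18 of 518, with 15 of them within 5 Mb, and 21 of 1674 on the remainder of the chromosome. Leaving out each array in turn gave 5 to 7. Over these omissions the counts were 71 to 116 for E2F1 knockout against WT, 8 to 14 against E2F2 knockout and 66 to 132 for E2F2 knockout against WT, with 66 without WT array 2 and 69 and 68 without E2F2 knockout arrays 2 and 3. The median difference from WT was 0.08 to 0.179, highest without WT array 4. On the remainder of chromosome 2 the share moving only in the E2F1 group was 0.179 to 0.299%, with 0.179% without WT array 3, E2F1 knockout array 1, 3 or 4, or E2F2 knockout array 1 or 3. Names with unequal probes numbered 3 to 4.

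No filter on dim probes, which tests 940 flanking probes, gave 65 calls against WT, 7 against E2F2 knockout and 62 for E2F2 knockout against WT, a median of 0.051 and a share of 0.0918% on the remainder of the chromosome. A filter on all 12 arrays, which tests 394, gave 7 calls against E2F2 knockout, 0.0772% on the remainder and 2 names with unequal probes. The median difference was 0.048 with quantile normalization, 0.073 with median centring and 0.051 with series matrix values, while the median of all probes moved from 0.12 to 0.05, 0.07 and 0.05. With the replicate block, 133 flanking probes passed against WT, 13 against E2F2 knockout and 143 for E2F2 knockout against WT. For these alternatives and for the omissions of single arrays, the share called over all tested probes is not given. Their counts are therefore not read as a result about the flanking probes.

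Only uncalled neighbours changed sign. Quantile normalization and series matrix values gave -0.158 and -0.159 for NAP061008-1 and -0.108 and -0.109 for Raly, and normexp gave 0.025 for 4930519P11Rik. With an array left out, values ran from -0.211 to 0.139 for 4930519P11Rik, -0.054 to 0.21 for Zfp341, -0.334 to 0.021 for Rpl5-ps2, -0.156 to 0.169 for NAP061008-1 and -0.187 to 0.089 for Eif2s2. The cause was not tested. Some calls against WT were lost with other processing. Sgk2 (adjusted p = 0.0899, 0.07 and 0.0913), Pxmp4 (0.0729, 0.0605 and 0.0711) and Trpc4ap (0.127, 0.129 and 0.128) lost it with quantile normalization, median centring and series matrix values, with Trpc4ap at 0.26 under the first and the last. Median centring also lost Chmp4b, Plagl2, Itch, Trp53rkb, Rbm12, Atp9a and Hnf4a (0.0518 to 0.148). Normexp lost Plagl2 (-0.291, 0.158), Ninl (-0.097, 0.615) and Trp53rkb (0.299, 0.0658). Ninl had an adjusted p of 0.05 with series matrix values. With no filter, all these but Hnf4a lost it, as did Slpi (0.0751 to 0.159). Calls were also lost when 1 array was left out. Chmp4b lost it for every array but WT array 3 (adjusted p up to 0.131). Atp9a lost it without WT array 1 or 2, E2F1 knockout array 2, 3 or 4, or E2F2 knockout array 1, 2 or 4, and Sgk2 without WT array 1, 2 or 4, E2F1 knockout array 2, 3 or 4, or E2F2 knockout array 1 or 4. Slpi lost it without WT array 1, 2 or 4, E2F1 knockout array 2, 3 or 4, or E2F2 knockout array 2 or 4. Pxmp4 lost it without WT array 1, 2 or 4 or E2F1 knockout array 2 or 3, Itch without WT array 1 or 4 or E2F1 knockout array 2, 3 or 4, and Trp53rkb without WT array 2, 3 or 4 or E2F1 knockout array 2, 3 or 4. Ninl lost it without WT array 1, 3 or 4 or E2F1 knockout array 2 or 4, Plagl2 without WT array 2 or E2F1 knockout array 2, 3 or 4, Rbm12 without WT array 1 or 2 or E2F1 knockout array 4, and Trpc4ap without WT array 2 or E2F1 knockout array 3.

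Signal limits the reading of Rem1, Spag4, Rbbp9, Cst8 and 1 Gm826 probe, which were not well above background on any array of at least 1 group and have only a bound there, and of Cnbd2 and the lincRNA at -8.89 Mb, for which no size is given. Pygb, Ninl, Nol4l, Ptgis, Necab3 and Cdk5rap1 A_55_P2011031 were above background on only some arrays of a group.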
